A study of Mus musculus with 6 samples.

Results

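Human syndromes with malformations of the face are caused by mutations in several splicing factors other than SNRPB, and the 7 mouse genes for these factors were followed here in embryonic heads that lack one copy of *Snrpb* in the neural crest. The genes are *Eftud2*, *Txnl4a*, *Sf3b2*, *Sf3b4*, *Puf60*, *Eif4a3* and *Cwc27*, taken as the rows of the gene count table with these symbols, 7 of 24421 symbols in all. RNA was sequenced from 6 libraries of E9.0 heads, when mutants still look normal, and each library was made from the heads of 2 embryos of one genotype with similar somite counts from different litters. The 3 WT pools were SnrpB +/+. The 3 Het pools were SnrpB+/-, in which Wnt1-Cre2 deletes a loxP-flanked stretch of one *Snrpb* allele (*Snrpb* ncc+/-). The driver works in neural crest and in the neural tube, so other head cells of a Het embryo keep both copies. The labels name both CD1 and C57BL/6 as strain, and do not say whether WT embryos carried the Cre or a loxP allele. Nothing in the labels ties a WT pool to a Het pool. *P*-values rest on the spread between pools, with each gene's variance drawn towards that of other genes by the fits.

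Splicing is carried out by small nuclear ribonucleoprotein particles (snRNPs), each an RNA with the shared Sm ring, of which SNRPB is a subunit, and proteins of its own. The U2 snRNP, with its SF3B subcomplex, binds the branch site next to the 3′ end of an intron, the U5 snRNP holds the exons in the active spliceosome, and the exon junction complex (EJC) is left on the mRNA upstream of each joined exon pair. Splicing takes place in every cell, yet mutations in each of these factors are known in people for malformations that include the face. The conditions are mandibulofacial dysostosis with microcephaly (*EFTUD2*), Burn-McKeown syndrome (*TXNL4A*), craniofacial microsomia (*SF3B2*), Nager syndrome (*SF3B4*), Verheij syndrome (*PUF60*), Richieri-Costa-Pereira syndrome (*EIF4A3*) and a retinal and skeletal disorder (*CWC27*).

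Of the 7 genes, *Sf3b4* and *Eif4a3* have near-identical copies elsewhere in the mouse genome. Stretches in which gene and copy are the same or nearly the same are printed here. A stretch of 60 bases does not by itself decide whether a longer read or its mate can be assigned to the disease gene. The coding sequence of *Sf3b4* (1272 bases) matched the processed pseudogene *Gm7935* (mm10, chr15:74080234-74081511, minus strand) at 99.53% of its bases, with 6 mismatches and 3 gap bases. Of the 100-base windows along the longest *Sf3b4* transcript, 36.9% occurred letter for letter in *Gm7935*. The first 60 coding bases of *Sf3b4* (plus strand, chr3:96172574-96172607 joined to chr3:96172971-96172996) did not differ from the copy (chr15:74081452-74081511), so no letter is in capitals.
Sf3b4: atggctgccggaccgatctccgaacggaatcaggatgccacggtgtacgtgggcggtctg
Gm7935: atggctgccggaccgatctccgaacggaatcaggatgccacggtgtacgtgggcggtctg
The coding sequence of *Eif4a3* (1233 bases) matched *Gm5580* at 96.76% and *Gm8994* at 96.19% of its bases. Coding bases 535 to 594, which encode the stretch around the DEAD box of this helicase, are given for *Eif4a3* (minus strand, chr11:119294325-119294376 joined to chr11:119294026-119294033), *Gm5580* (plus strand, chr6:116551698-116551757) and *Gm8994* (plus strand, chr6:136329077-136329136), with capitals at the positions where a copy differs from the gene.
Eif4a3: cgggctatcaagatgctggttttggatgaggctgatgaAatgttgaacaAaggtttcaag
Gm5580: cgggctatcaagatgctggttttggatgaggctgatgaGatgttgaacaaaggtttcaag
Gm8994: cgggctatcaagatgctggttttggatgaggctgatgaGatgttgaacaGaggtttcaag
Counted from 1 at the first printed base, *Gm5580* differs by A39G and *Gm8994* by A39G and A50G. *Gm7935* and *Gm5580* are not among the symbols of the count table, and *Gm8994* had between 2 and 22 counts in a library. Counts of *Sf3b4* are therefore uncertain over the shared windows, whereas 6.31% of the *Eif4a3* windows were shared with any gene. The other shares were 5.28% for *Txnl4a*, 3.07% for *Sf3b2* and 2.69% for *Cwc27*, and no window of *Eftud2* or *Puf60* was shared.

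The libraries held between 36378803 and 74909774 counts, and the 7 genes had between 1161 and 39255 counts in a library, so all 7 were among the 15584 genes tested. *Snrpb*, the targeted gene, measured 430, 438 and 414 counts per 1000000 counts of the library (CPM, scaled by trimmed mean of M-values) in the WT pools and 436, 412 and 430.3 CPM in the Het pools. Its total count, taken over all exons and all head cells, thus did not separate the groups and did not check the labels. Summed neural crest markers were at 316 to 388 CPM in WT and 339 to 370 CPM in Het pools, with none of the 10 at *P* under 0.05, and summed anterior neural markers at 429 to 506 and 413 to 449 CPM. Summed primitive erythroid markers ranged from 872 to 1485 CPM in WT and 882 to 1206 CPM in Het pools, with *Hba-a1* at 0 in every library. Summed cardiac markers ranged from 13.6 to 83.8 CPM in WT and 37.4 to 138 CPM in Het pools, and visceral endoderm markers reached 12.7 CPM in WT 1 against at most 3.81 CPM in any Het pool. The outer values came from the same pool, as WT 1 had the lowest neural crest and cardiac sums of all libraries. It also had the highest anterior neural, primitive erythroid and visceral endoderm sums. Posterior Hox genes stayed below 1 CPM in sum. Genes of the Y chromosome summed to 62.8 to 120 CPM in WT and 111 to 228 CPM in Het pools, and Het 2 had 0.368 CPM of *Xist*, so the sexes in the pools differed. The part of these differences in the results was not tested beyond the covariate named beside them. In these bulk samples, fewer cells of a type and less RNA per cell cannot be told apart.

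None of the 7 disease genes passed the test for a change of total counts in Het heads, and each was measured within a narrow interval. Counts per gene do not show exon skipping or intron retention, and splicing of the 7 genes was not tested. The study reported many splicing changes in these mutants, in genes tied to mRNA processing. Among its genes with changed expression it listed components of the spliceosome. With edgeR's quasi-likelihood test and Benjamini-Hochberg adjustment over all tested genes, 0 of 7 had an adjusted *P* under 0.05, against 0.00642% of all tested genes (1 of 15584). With no adjustment 0 of 7 were under 0.05, against 8.43% of all tested genes, and DESeq2 called 0 of 7, against 0.651% of the genes for which it gave an adjusted *P*. The adjusted *P*-values of the 7 genes lay between 0.632 and 0.989 by edgeR. In the Het mean 5 genes were higher and 2 lower, with log2 fold changes from -0.08 to 0.10 and a median of 0.02, beside a median of 0.00 over all tested genes. The 95% intervals gave the room left for a change in whole heads. None of them reached a decrease of more than 14.4% or an increase of more than 15.4%. They do not bound a change within the cells that lost an *Snrpb* copy, since other head cells were counted with them. The summed level of the 7 genes was 1785 to 1838 CPM in WT and 1794 to 1856 CPM in Het pools.

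**Figure D1:**
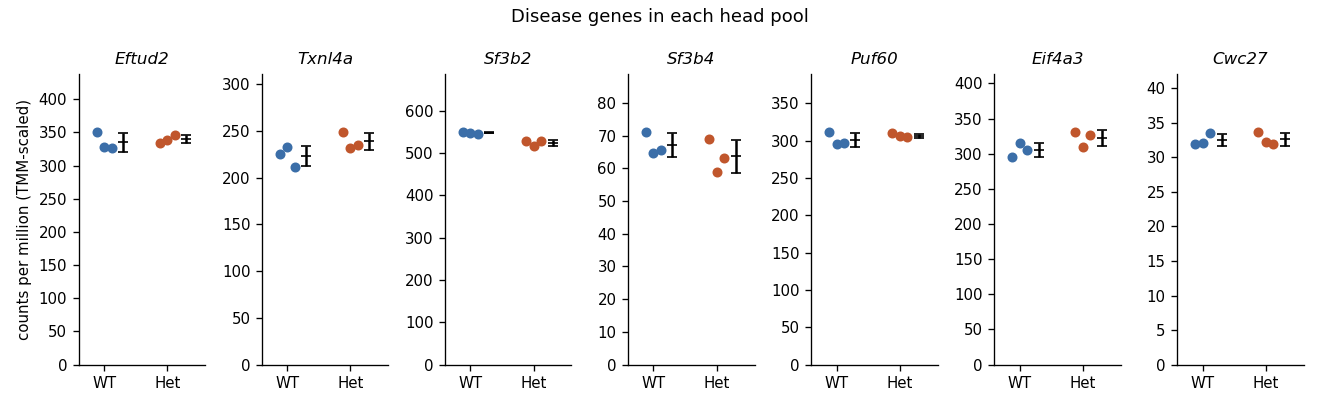
CPM (y axis, from 0) of the 7 disease genes in each of 3 WT and 3 Het head pools (points), with the group mean and SD (bars). The groups overlap in each panel other than *Sf3b2*, where the WT pools lie at 546 to 550.3 and the Het pools at 516 to 529 CPM.

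**Figure D2:**
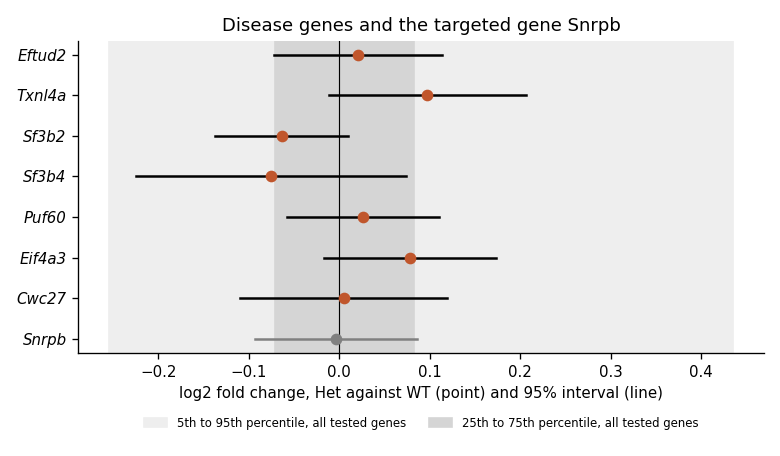
Log2 fold change of Het against WT (points) with its 95% interval (lines) for the 7 disease genes and, in grey, the targeted gene *Snrpb*. Each interval spans 0, and the shaded bands give the range of all 15584 tested genes between the 5th and 95th (-0.25 to 0.43) and the 25th and 75th percentiles (-0.07 to 0.08).

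*Eftud2* encodes the GTPase of the U5 snRNP, which drives the rearrangements that activate and later take apart the spliceosome (chr11:102838473-102880985, minus strand). It measured 351, 327 and 326 CPM in the WT pools and 334, 339 and 346 CPM in the Het pools. The highest value was that of WT 1, the other WT pools lay below all Het pools, and the groups overlapped. The log2 fold change was 0.02 (SE 0.04, 95% interval -0.07 to 0.11, edgeR adjusted *P* = 0.910), so the level differed by 1.47%, less than the spread among WT pools (335 ± 13.9 CPM, SD, n = 3). Leaving out Het 3 gave 0.0018 and leaving out WT 1 gave 0.05 on the log2 scale. The annotation places the long non-coding RNA *Gm26668* on the opposite strand over 26.9% of the *Eftud2* exon bases. Whether counting used strand is not given in the sources used here, so a part of its reads could be counted in *Eftud2* or lost from it.

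*Txnl4a* encodes the small thioredoxin-like protein of the U5 snRNP, known as Dim1 in yeast (chr18:80206795-80225855, plus strand). It measured 226, 233 and 211 CPM in the WT pools and 249, 232 and 235 CPM in the Het pools. Het 1 was the highest and WT 3 the lowest of the 6, and WT 2 lay just above Het 2. Its log2 fold change was 0.10 (SE 0.05, interval -0.01 to 0.21, edgeR adjusted *P* = 0.632). The Het mean was thus 6.98% above the WT mean, with an interval from -0.79% to 15.4%. This log2 fold change was 0.06 without WT 3, 0.13 without WT 2 and 0.04 with the Y-linked level as a covariate. *Gm16286*, a gene on the same strand, shares 10.1% of the *Txnl4a* exon bases and is not among the symbols of the table.

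*Sf3b2* and *Sf3b4* encode subunits of SF3B that bind each other and contact the pre-mRNA beside the branch site. *Sf3b2* (chr19:5273932-5295455, minus strand) measured 550.3, 549 and 546 CPM in the WT pools and 529, 516 and 528 CPM in the Het pools. Every Het pool lay below every WT pool, and *Sf3b2* was the 1 of 7 genes whose groups did not overlap. Over all tested genes 15.2% had groups that did not overlap, so 1 of 7 is near the background. The log2 fold change was -0.06 (SE 0.03, interval -0.14 to 0.01, edgeR adjusted *P* = 0.640), and the change in the mean of -4.32% did not pass the test. Pools of one genotype differed little in this gene, with a within-group SD of 0.01 on the log2 scale, and 99.7% of tested genes had a larger one. The SE and the *P*-value also draw on the variance of other genes, so they do not rest on this small SD alone. The log2 fold change kept its sign in every alternative fit, from -0.07 to -0.05 with 1 library left out. With the Y-linked level as a covariate it was -0.05.

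*Sf3b4* (chr3:96172332-96177564, plus strand) measured 71.1, 64.5 and 65.5 CPM in the WT pools and 68.8, 58.9 and 63.2 CPM in the Het pools. WT 1 and Het 1 were the highest of their groups, Het 2 and Het 3 lay below all WT pools, and the groups overlapped through Het 1. The log2 fold change was -0.08 (SE 0.07, interval -0.22 to 0.07, edgeR adjusted *P* = 0.790), and it moved from -0.14 without Het 1 to -0.02 without Het 2. It varied most among pools of one genotype of the 7 genes, with a within-group SD of 0.10 on the log2 scale beside a median of 0.11 over all tested genes. The count ratio of *Sf3b4* to *Sf3b2*, which needs no scaling between libraries, was 0.129, 0.118 and 0.120 in the WT pools and 0.13, 0.114 and 0.120 in the Het pools. The ratio did not separate the genotypes, and Het pools held both the highest and the lowest value.

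*Puf60* encodes a U2AF-related protein that binds the pyrimidine-rich tract before the 3′ splice site and helps U2 snRNP to join (chr15:76070182-76080924, minus strand). It measured 312, 295 and 297 CPM in the WT pools and 309.8, 306 and 305 CPM in the Het pools. The Het pools lay close together between WT 1 and the other WT pools. The log2 fold change was 0.03 (SE 0.04, interval -0.06 to 0.11, edgeR adjusted *P* = 0.875), and 79.8% of tested genes had a larger one in size. This value ranged from 0.01 without WT 2 to 0.05 without WT 1.

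*Eif4a3* encodes the RNA helicase that clamps the EJC onto mRNA (chr11:119288363-119300089, minus strand). It measured 296, 315 and 306 CPM in the WT pools and 331, 309.8 and 327 CPM in the Het pools. Het 1 and Het 3 lay above all WT pools, and Het 2 between WT 2 and WT 3. The log2 fold change was 0.08 (SE 0.04, interval -0.02 to 0.17, edgeR adjusted *P* = 0.658), which leaves room for a change between -1.17% and 12.7% in Het heads. On the log2 scale the value ranged from 0.05 without WT 1 to 0.11 without Het 2. *Cwc27*, whose cyclophilin-like product enters the activated spliceosome and contacts EIF4A3 (chr13:104631140-104817142, minus strand), measured 31.9, 32.1 and 33.5 CPM in the WT pools and 33.7, 32.2 and 31.9 CPM in the Het pools. Its groups covered nearly the same range, and the log2 fold change was 0.00 (SE 0.05, interval -0.11 to 0.12, edgeR adjusted *P* = 0.989). *Srek1ip1*, which overlaps 5.29% of the *Cwc27* exon bases on the opposite strand, had a log2 fold change of -0.01 (edgeR adjusted *P* = 0.988). The count ratio of *Cwc27* to *Eif4a3* was 0.108, 0.102 and 0.110 in the WT pools and 0.102, 0.104 and 0.0977 in the Het pools, and that of *Txnl4a* to *Eftud2* was 0.643, 0.711 and 0.646 in WT and 0.745, 0.685 and 0.678 in Het pools. Both ratios overlapped between the genotypes.

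RNA of the disease genes was present at very different levels once transcript length was taken into account. On the scale of CPM per kilobase of all annotated exons, *Eif4a3* was the highest at 144 ± 4.58 in WT (SD, n = 3) and *Cwc27* the lowest at 11.3 ± 0.314. Between them came *Sf3b2* at 80.4 ± 0.298, *Puf60* at 63.5 ± 1.96, *Txnl4a* at 49.5 ± 2.45, *Eftud2* at 39.9 ± 1.66 and *Sf3b4* at 31.0 ± 1.65 CPM per kilobase. All neighbours in this order were apart in all 6 libraries, and the order was the same in Het heads. Even *Cwc27* stood above 71.7% of the 14981 tested genes with an annotated length, and *Eif4a3* above 98.2%. The order depends in part on the length used, and the annotation lists 7 retained-intron transcripts for *Eftud2*, 6 for *Sf3b2*, 5 for *Puf60*, 1 each for *Txnl4a* and *Sf3b4* and 0 for the others. Per kilobase of the longest transcript, which is protein-coding for each of the 7 genes, *Eftud2* at 100.3 ± 4.16 stood above *Txnl4a* at 54.7 ± 2.71 CPM per kilobase. On that scale *Sf3b2* at 170.2 ± 0.631 and *Puf60* at 160.2 ± 4.95 CPM per kilobase were no longer apart, with a within-library ratio of 0.986 to 1.09. If no read from a window shared with another gene had been counted, *Sf3b4* would stand at 58.5 ± 3.12 CPM per kilobase of unshared window, beside 59.2 ± 2.93 for *Txnl4a*.

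**Figure D3:**
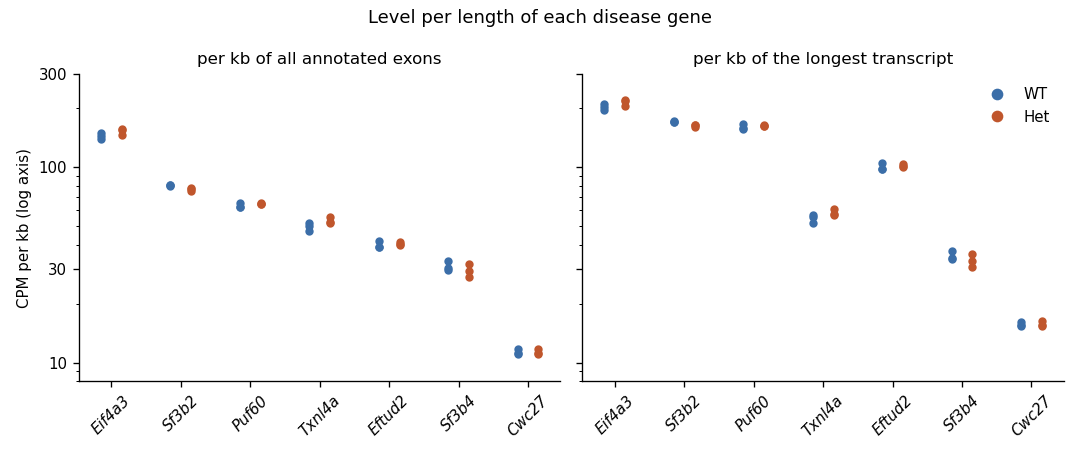
Level per length of each disease gene, in CPM per kilobase on a log axis, in 3 WT (blue) and 3 Het (orange) pools, with the union of annotated exons (left) or the longest transcript (right) as the length. *Eif4a3* is at the top and *Cwc27* at the bottom on both scales, whereas *Eftud2* and *Txnl4a* change places.

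The other proteins of the same complexes were examined to place these 7 genes. Among 10 genes for U5 snRNP proteins and their assembly factors, 0 had an unadjusted *P* under 0.05 (background 8.43%), 3 were higher and 7 lower in Het, and the median log2 fold change was -0.03. The groups did not overlap in 3 of these 10 genes (background 15.2%), 1 higher and 2 lower in Het. Among 9 EJC genes and 8 spliceosomal cyclophilins, relatives of *Cwc27*, again 0 and 0 passed, with medians of 0.04 and 0.02, and in both lists 0 genes had groups that did not overlap. *Cwc22*, which brings EIF4A3 to the spliceosome, was singled out after its values were seen. It measured 301, 403 and 207 CPM in the WT pools and 313, 84.3 and 83.4 CPM in the Het pools. Het pools alone thus spanned 83.4 to 313 CPM in this gene, and its log2 fold change of -0.93 (SE 0.69) was within that spread, with an edgeR adjusted *P* of 0.765.

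The 14 genes of the U2 snRNP and of SF3A and SF3B, the partners of *Sf3b2* and *Sf3b4*, held 5 genes with an unadjusted *P* under 0.05 (background 8.43%), 3 higher and 2 lower in Het. The groups did not overlap in 7 of 14, against 15.2% of all tested genes, and the median log2 fold change was 0.03. None of them passed after adjustment with edgeR's quasi-likelihood test. *Snrpa1*, which encodes the U2 A′ protein, measured 195, 197 and 203 CPM in the WT pools and 242, 225 and 235 CPM in the Het pools, with every Het pool above every WT pool. Its log2 fold change was 0.24 (SE 0.04), with an adjusted *P* of 0.235 by edgeR's quasi-likelihood test, 0.0294 by its likelihood ratio test and 0.00385 by DESeq2. *Snrpb2*, which encodes the U2 B″ protein that pairs with U2 A′ on the U2 RNA, measured 91.5, 99.5 and 106 CPM in the WT pools and 111, 118 and 117 CPM in the Het pools. It was also higher in every Het pool, by 0.22 (SE 0.06) on the log2 scale, with an adjusted *P* of 0.424 by edgeR and 0.135 by DESeq2.

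*Sf3b3*, the large SF3B scaffold subunit beside SF3B1, was lower in Het. It measured 512, 487 and 503 CPM in the WT pools and 409, 421 and 457 CPM in the Het pools, so that every Het pool lay below every WT pool. Its log2 fold change was -0.22 (SE 0.05), with an adjusted *P* of 0.309 by edgeR's quasi-likelihood test. The adjusted *P* was 0.1003 by edgeR's likelihood ratio test and 0.0227 by DESeq2. *Sf3b1*, which grips the branch site, had a log2 fold change of 0.10 (SE 0.04, edgeR adjusted *P* = 0.501), and *Sf3a1*, a subunit of SF3A, had one of -0.11 (SE 0.05, edgeR adjusted *P* = 0.569). *Sf3b1* was higher in every Het pool, and the difference between the SF3B subunits was not tested. The summed Y-linked level, given above, was on average higher in Het pools. With this level as a covariate the log2 fold change was 0.29 for *Snrpa1*, 0.27 for *Snrpb2* and -0.15 for *Sf3b3*.

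Of the 6 genes of 3′ splice site recognition, the partners of *Puf60*, 2 had an unadjusted *P* under 0.05 (background 8.43%) and both were higher in Het. The median log2 fold change of the list was 0.06 and 4 of 6 genes had groups that did not overlap (background 15.2%), each higher in Het. *Rbm39*, a U2AF-related factor, measured 409.7, 435 and 406 CPM in the WT pools and 465, 467 and 452 CPM in the Het pools. Every Het pool lay above every WT pool, with a log2 fold change of 0.15 (SE 0.04, edgeR adjusted *P* = 0.424), and of 0.09 with the Y-linked level as a covariate. *Rbm17*, which encodes the splicing factor SPF45, had a log2 fold change of 0.10 (SE 0.04, edgeR adjusted *P* = 0.544).

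**Figure D4:**
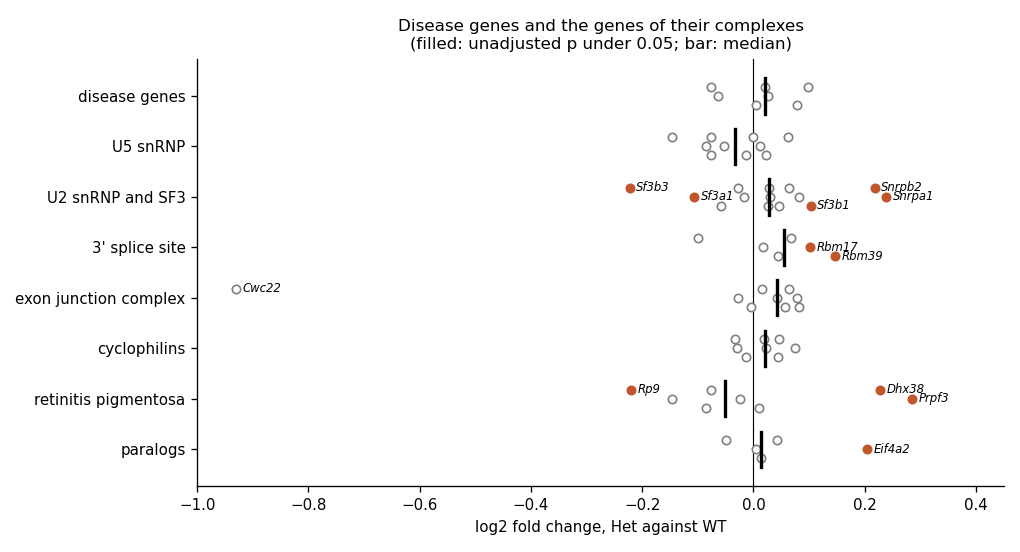
Log2 fold change of Het against WT (x axis) for the 7 disease genes and the genes of 7 lists around them, 1 point a gene, filled where the unadjusted *P* was under 0.05, with the median of each list as a bar. No disease gene is filled, and *Snrpa1*, *Snrpb2* and *Sf3b3* lie farthest from 0 in the list of U2 snRNP and SF3 proteins.

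Splicing factors whose mutation affects mainly the retina (retinitis pigmentosa genes) served as a second set of disease genes. Of these 8 genes, 3 of which are also U5 proteins, 2 were higher and 1 lower in Het at an unadjusted *P* under 0.05 (background 8.43%), and the median log2 fold change was -0.05. The groups did not overlap in 3 of these 8 genes (background 15.2%), 2 higher and 1 lower in Het. *Prpf3*, a U4/U6 protein, measured 72.9, 66.2 and 64.5 CPM in the WT pools and 80.8, 86.8 and 80.3 CPM in the Het pools, and *Dhx38*, the helicase of the second step, measured 131, 128 and 117 CPM in WT and 144, 149 and 148 CPM in Het pools. Both were higher in every Het pool, with log2 fold changes of 0.28 (SE 0.06) and 0.23 (SE 0.05). Neither passed with edgeR's quasi-likelihood test (adjusted *P* = 0.309 for each), and both did with DESeq2 (adjusted *P* = 0.0144 and 0.0366). With edgeR's likelihood ratio test *Prpf3* passed as well (adjusted *P* = 0.0409), and *Dhx38* did not (adjusted *P* = 0.098). With the Y-linked level as a covariate the log2 fold change was 0.20 for *Prpf3* and 0.17 for *Dhx38*. *Rp9* had a log2 fold change of -0.22 (SE 0.09, edgeR adjusted *P* = 0.573), or -0.37 with the Y-linked level as a covariate, and overlapping groups.

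Among 5 relatives of the disease genes, 0 had an adjusted *P* under 0.05 by edgeR's quasi-likelihood test (background 0.00642%) or by DESeq2 (background 0.651%). At an unadjusted edgeR *P* under 0.05 there was 1 of 5 (background 8.43%), and 1 of 5 had groups that did not overlap (background 15.2%). *Eif4a2*, a helicase of translation initiation related to *Eif4a3*, measured 237, 248 and 228 CPM in the WT pools and 277, 288 and 257 CPM in the Het pools. It was higher in every Het pool by 0.20 (SE 0.05) on the log2 scale, with an edgeR adjusted *P* of 0.420, and by 0.08 with the Y-linked level as a covariate. The groups overlapped for *Eif4a1* (log2 fold change 0.04), for *Eef2*, the translation elongation GTPase related to *Eftud2* (-0.05), for *Efl1*, listed in the table under its older symbol *Eftud1* (0.01), and for *Txnl4b*, the close relative of *Txnl4a* (0.00).

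Each disease gene was also set beside the tested gene whose level varied most like it over the 6 libraries, measured as the root mean square difference of log2 CPM centred on each gene's mean. This difference was 0.01 for *Eftud2* with *Ngdn*, *Txnl4a* with *Ppan*, *Sf3b2* with *Kirrel*, *Puf60* with *Bcat2*, *Eif4a3* with *Cdca7* and *Cwc27* with *Mrpl2*, and 0.02 for *Sf3b4* with *Dnaaf5*. The median over all tested genes was 0.11 to 0.14 for the 7 genes. The nearest gene lies below this median by construction, as it was picked for the smallest difference. The second-nearest genes were at 0.01 to 0.02 as well. Between 2 disease genes the closest profiles were those of *Eftud2* and *Puf60* (0.02), and the farthest those of *Sf3b4* and *Txnl4a* (0.11). The match is a description of 6 pools. Leaving out 1 library named another gene for at least 5 of the 7.

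**Figure D5:**
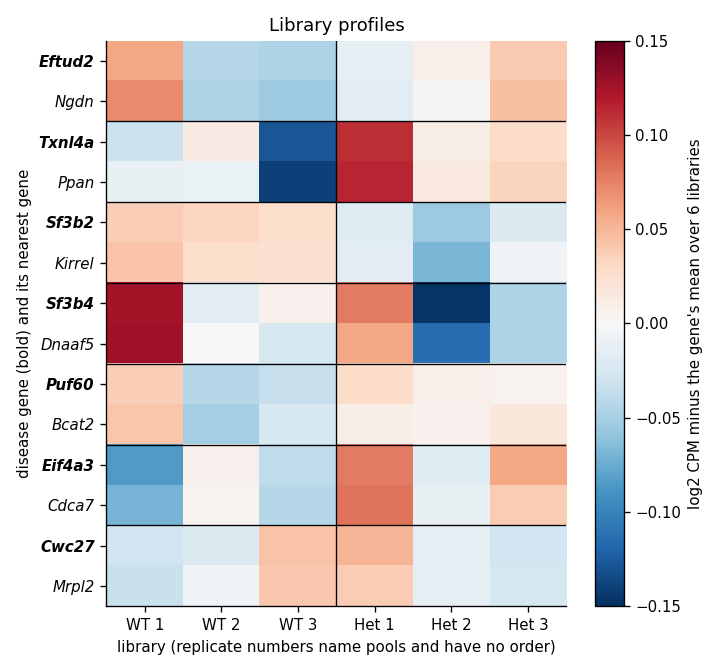
Log2 CPM of each disease gene (bold) and of its nearest gene in the 6 libraries, as the difference from the gene's own mean (colour, -0.15 to 0.15). *Sf3b4* is highest in WT 1 and lowest in Het 2, *Txnl4a* is lowest in WT 3 and highest in Het 1, and *Sf3b2* is above its mean in each WT pool.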

How the data were processed

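RNA was extracted from pools of heads, depleted of ribosomal RNA and sequenced as stranded paired-end libraries. The deposited values are raw read counts per gene symbol, made by the authors on mm10. The study's methods name STAR and HTSeq, and the submitters' processing notes name Trim Galore, STAR, MultiQC and featureCounts, so the counter is uncertain. How reads that match several genes were treated, and the strand setting, are not given in the sources used here.

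Counts were fitted with edgeR 4.0.16 (R 4.3.3; filterByExpr, which left 15584 of 24421 symbols, TMM, quasi-likelihood test, Benjamini-Hochberg over all tested genes, threshold 0.05), 3 WT against 3 Het libraries, and with DESeq2 1.42.0 as an alternative. The fit and its 95% intervals were also run on counts simulated from the same kind of model, with variances estimated from these libraries. Such a run cannot show a misfit of the model to these pools. Levels per length used exons of an mm10 Gencode annotation, in which 23334 symbols matched 1 gene and which is later than the release the study names. Copies were found as exact 100-base windows of annotated transcripts.

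The members and gene lists were chosen with earlier results of these data known. Named genes were the 7 disease genes, list genes with an unadjusted edgeR *P* or a DESeq2 adjusted *P* under 0.05, paralogs, the nearest gene of each, genes overlapping one, and *Snrpb*. A list of 9 P53 targets had 9 of 9 higher in Het at an unadjusted edgeR *P* under 0.05 (background 8.43%). The study had reported raised P53 targets in these mutants, so this count is no independent check. After adjustment 0 of 9 passed by edgeR's quasi-likelihood test and 8 by DESeq2. Alternatives were another tool, scaling, filter, covariate or replicate block, and leaving out each library.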

Additional observations from a re-analysis of the deposited data

How the results depend on the processing

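No disease gene had an adjusted *P* under 0.05 in any of the 14 alternative fits. Of 98 refitted values 95 kept their sign. The 3 others were those of *Cwc27*, at -0.019 without Het 1, -0.012 without WT 1 and -0.0044 without WT 2 (range -0.019 to 0.027 without single libraries), against 0.005 in all libraries. Scaling by library size alone put 2 disease genes under an unadjusted *P* of 0.05, *Txnl4a* and *Eif4a3*, and leaving out WT 2 put 1 there, *Txnl4a*, so that leaving out single libraries gave 0 to 1. The log2 fold change of *Snrpb* turned to 0.0074 under library size and ranged from -0.026 to 0.019 without single libraries, that of *Txnl4b* turned to -0.0006 by DESeq2 and -0.10 with the Y-linked covariate and ranged from -0.047 to 0.078, that of *Efl1* turned to -0.035 with the Y-linked covariate and ranged from -0.025 to 0.055, and that of *Eif4a1* ranged from -0.0062 to 0.072. The cause was not tested.

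Over all tested genes, 1 passed in the main test, 84 by DESeq2, 54 by the edgeR likelihood ratio test, 11 with no filter, 0 with the Y-linked covariate and 0 to 6 without single libraries. Of the complex partners (lists of 10, 14, 6, 9 and 8 genes), 7 had an unadjusted *P* under 0.05 in the main test (background 8.43%). There were 4 by the likelihood ratio test, 4 with the Y-linked covariate and 4 to 7 without single libraries, lowest without Het 2. The share over all tested genes is not given for these other fits. This set of alternatives was chosen after seeing the data. Deviations of same-numbered pools correlated at 0.169, 0.032 and 0.36, and those of differently numbered pools at -0.245 to 0.088. Whether the numbers pair the pools was not tested. With the replicate number as a block, 0 disease genes had an adjusted *P* under 0.05, 1 gene passed over all tested genes, and *Sf3b2* was at -0.06. The order of levels kept 20 of 21 pairs with the longest transcript and 20 with unshared windows, the latter chosen after seeing the data. The nearest gene was kept for 0 to 2 of the 7 without single libraries. No disease gene had fewer than 1161 counts in a library, and the precision rests on 3 pools a genotype.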
